A study of Mus musculus with 12 samples.

Results

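The nuclear genes for the subunits of the mitochondrial respiratory chain and the ATP synthase were followed in mouse hearts. They were taken by symbol, as every gene whose symbol starts with Nduf, Uqcr or Atp5 or with Cox4 to Cox8, together with Sdha, Sdhb, Sdhc, Sdhd and Cyc1, on probe sets that carry 1 symbol. The brightest probe set stood for a gene, and symbols ending in -ps were left out. This gave 78 of the 26989 genes tested. They comprised 25 subunits of complex I, 4 of complex II, 9 of complex III, 18 of complex IV and 12 of complex V, 7 complex I assembly factors named Ndufaf, and 3 genes named as copies of a subunit gene (Ndufb4c, Ndufa11b and Atp5l2). Ndufa4 and Ndufa4l2 were counted with complex IV, where the NDUFA4 protein is now placed. The rule names 97 protein-coding genes in the RefSeq table used here, of which 76 were measured and 21 were not analysed here. Those not analysed included the core complex I genes Ndufs8, Ndufv1 and Ndufv2 and the ATP synthase genes Atp5a1, Atp5c1 and Atp5o. The 13 protein-coding genes of the mitochondrial genome had no probe set of their own, so every value below is for nuclear genes.

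Heart RNA from 12 male C57BL/6J mice of 10 weeks was measured on 12 Clariom D arrays, a microarray that reads each gene with many short probes. The 4 groups of 3 biological replicates were ADAM12 knockout mice after TAC, ADAM12 knockout mice after sham surgery, wild type mice after TAC and wild type mice after sham surgery, all sampled 2 weeks after the operation. TAC is transverse aortic constriction, which narrows the aortic arch and makes the left ventricle pump against a higher pressure. ADAM12 is a membrane-anchored metalloprotease, and the series asks which signalling genes of the heart change with TAC in its presence and absence. The labels describe neither the knockout allele nor the cells in which it acts, nor which chambers were taken. Levels are log2 signals, on which a difference of -1 is a halving, and they compare a gene between arrays, not one gene with another.

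The knocked-out gene itself, Adam12, has 1 dim probe set, which also carries the symbol 5830403F22Rik. Adam12 read 4.25, 4.40 and 4.36 in knockout TAC hearts, 4.33, 4.40 and 4.32 in knockout sham hearts, 4.56, 4.73 and 4.80 in wild type TAC hearts and 4.54, 4.46 and 4.61 in wild type sham hearts. Each of the 6 knockout arrays was lower than each of the 6 wild type arrays, and it was not tested whether the probes lie in the deleted part. The arrays were alike in overall signal, with medians over genes between 5.36 and 5.50. Cardiomyocyte markers such as Myh6 and Tnnt2 were among the brightest genes in all 4 groups, as the heart label requires, with a list mean between 17.70 and 17.93 on every array. Markers of atrial muscle varied widely inside each group, with list means from 10.51 to 13.41 in knockout TAC hearts and from 10.48 to 13.42 in knockout sham hearts.

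The respiratory chain carries electrons from NADH (complex I) and succinate (complex II) through ubiquinone to complex III, through cytochrome c to complex IV and on to oxygen. Complexes I, III and IV pump protons out of the matrix, and complex V, the ATP synthase, lets them back in to make ATP. Heart muscle is dense in mitochondria and draws nearly all of its ATP from this chain, burning mainly fatty acids, and a fall of its oxidative genes is a familiar feature of the overloaded heart. Nuclear genes of the chain are known targets of the transcription factors NRF1, YY1, the ETS factor GABP and the estrogen-related receptors, which the coactivator encoded by Ppargc1a serves.

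The promoter windows of 4 of these genes are shown first, and binding of those factors was not measured here. They are the RefSeq promoter windows of GRCm38.p6, 250 bases before to 50 bases after the gene's start, written 5′ to 3′ on the gene's own strand. Ndufa8 (chr2:36049289-36049588, minus strand) had the largest fall among complex I genes, and Atp5g2 (chr15:102670998-102671297, minus strand) the largest among ATP synthase genes. Cox7a1 (chr7:30183921-30184220, plus strand) and Cox7a2 (chr9:79759804-79760103, minus strand) encode the muscle form and the widely expressed form of one subunit of complex IV. The 4 were chosen after their values were seen. Capitals mark matches to any of 4 motifs on either strand, namely GCGCANGCG for NRF1, CCGGAAG for ETS factors, AAGATGG for YY1 and AAGGTCA for estrogen-related receptors.
Ndufa8: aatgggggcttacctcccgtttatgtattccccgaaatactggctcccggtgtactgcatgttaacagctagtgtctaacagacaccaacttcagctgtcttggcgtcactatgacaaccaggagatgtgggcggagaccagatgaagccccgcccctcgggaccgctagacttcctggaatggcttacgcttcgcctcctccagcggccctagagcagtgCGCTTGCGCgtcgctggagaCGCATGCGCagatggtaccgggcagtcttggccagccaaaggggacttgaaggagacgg
Atp5g2: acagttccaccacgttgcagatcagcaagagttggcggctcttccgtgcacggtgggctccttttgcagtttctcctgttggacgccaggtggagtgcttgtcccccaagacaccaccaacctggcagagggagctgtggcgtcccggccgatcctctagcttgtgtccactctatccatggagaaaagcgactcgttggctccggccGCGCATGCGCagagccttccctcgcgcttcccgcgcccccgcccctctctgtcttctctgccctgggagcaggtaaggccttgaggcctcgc
Cox7a1: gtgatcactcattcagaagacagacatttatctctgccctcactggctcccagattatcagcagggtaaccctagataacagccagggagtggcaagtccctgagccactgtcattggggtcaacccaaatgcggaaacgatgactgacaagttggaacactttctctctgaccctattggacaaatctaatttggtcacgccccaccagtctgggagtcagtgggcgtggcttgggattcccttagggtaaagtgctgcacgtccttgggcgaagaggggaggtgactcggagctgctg
Cox7a2: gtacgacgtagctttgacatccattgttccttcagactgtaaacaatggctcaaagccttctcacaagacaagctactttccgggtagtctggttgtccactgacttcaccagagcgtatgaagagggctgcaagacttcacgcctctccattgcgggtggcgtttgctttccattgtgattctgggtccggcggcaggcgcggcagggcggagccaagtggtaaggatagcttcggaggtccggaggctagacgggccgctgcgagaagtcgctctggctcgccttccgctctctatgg
The capitals in Ndufa8 are a pair of NRF1 matches, CGCTTGCGC and CGCATGCGC, both read on the opposite strand and starting 29 and 9 bases before the gene's start. The capitals in Atp5g2 are a match on each strand that overlap, GCGCATGCG and CGCATGCGC, starting 42 and 41 bases before the start. The windows of Cox7a1 and Cox7a2 hold none of the letters searched.

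A RefSeq window was found for 60 of the 78 genes. At least 1 of the 4 motifs was present in 35 of these 60 windows (58.3%), compared with 6403 of all 27025 promoter windows (23.7%). The NRF1 letters were in 17 of the 60 (28.3%) and in 6.47% of all windows, the ETS letters in 15 (25.0%) and in 9.12%, the YY1 letters in 10 (16.7%) and in 6.48%, and the letters of estrogen-related receptors in 7 (11.7%) and in 4.66%. A window with overlapping matches of one motif was counted once. Among genes that fell with TAC in the knockout, 22 of 38 windows held a motif (57.9%), and among those that did not pass the test 13 of 22 did (59.1%). The motifs were chosen with the values known, and a match describes letters in a window, not binding.

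Most genes of the respiratory chain fell with TAC in the knockout hearts. Of the 78 genes, 47 fell at an adjusted p under 0.05 and 0 rose, where over all genes tested 5.68% fell and 7.08% rose. Among genes brighter than the median gene, 10.3% fell. The difference was negative for 77 of the 78, with a median of -0.38 on the log2 scale (23.0% lower), and the median over all genes was -0.03. For 70 of the 78 genes all 3 knockout TAC arrays lay below all 3 knockout sham arrays, which was so for 16.9% of all genes. The count of 47 leaned on single hearts. It was 30 without knockout TAC replicate 2 and 31 without knockout sham replicate 3, and 30 of the 47 genes passed in all 23 alternative analyses.

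**Figure D1:**
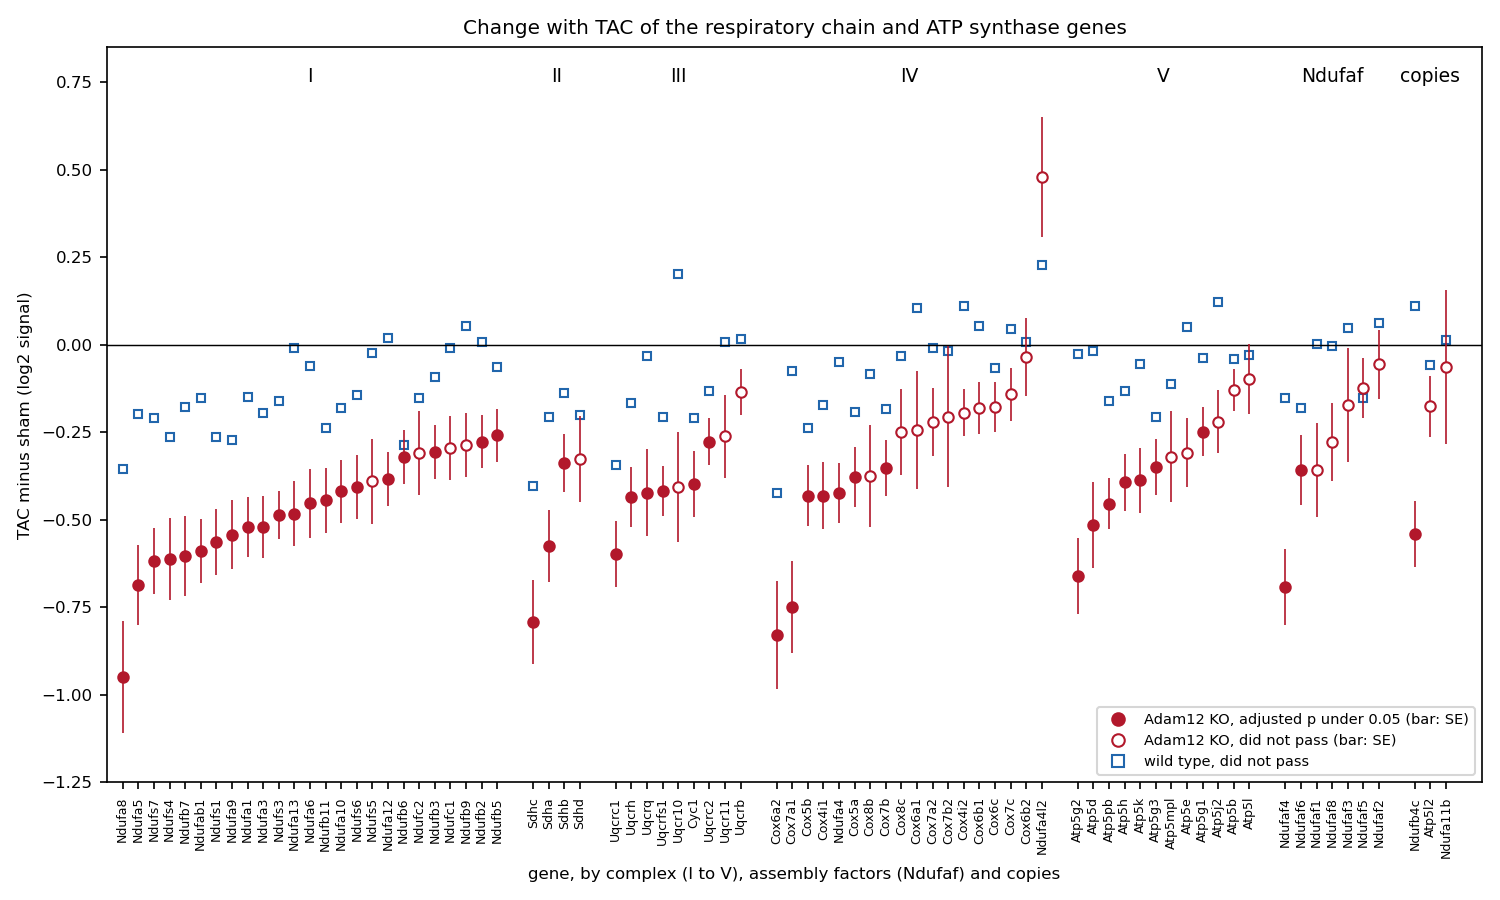
Difference TAC minus sham (log2 signal, vertical axis) of the 78 genes by complex, in knockout hearts (circles, bar: SE) and wild type hearts (squares), 3 arrays a group. Filled circles, adjusted p under 0.05 in the knockout, number 47 and all lie below 0, Ndufa4l2 is the single circle above 0, and no square passed the test.

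The complexes shared the direction and differed in how many of their genes passed. In complex I 21 of 25 genes fell with a median of -0.45, in complex II 3 of 4 with -0.46, in complex III 6 of 9 with -0.41, in complex V 7 of 12 with -0.33 and in complex IV 7 of 18 with -0.25. Some of these counts leaned on single arrays as well. Without knockout TAC replicate 2 they were 16 in complex I, 2 in complex II, 3 in complex III, 4 in complex IV and 3 in complex V. Without knockout sham replicate 3 they were 16, 2, 3, 4 and 4 in the same order. Without knockout sham replicate 1 they were 18, 3, 3, 6 and 4. Complex IV holds genes that the heart hardly uses, since Cox6b2, Cox7b2 and Cox8c encode forms typical of testis. These 3 read at most 5.73 on any array, close to the median gene, and none passed. Without them 7 of 15 complex IV genes fell, with a median of -0.35. Of the Ndufaf assembly factors 2 of 7 fell (1 of 7 without any of 6 single arrays), and of the copies 1 of 3. The Ndufaf count was also 1 of 7 with all probe sets tested, with arrays centred on their median and with only the groups compared fitted. It was 1 of 7 as well with the replicate number as a block within the knockout arrays. The share that passed was lower among dim genes. It was 4 of 18 for genes with a mean level under 9, 21 of 28 between 9 and 13, and 22 of 32 above.

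Array by array the complexes moved together. Taking for each array the median over a complex of the difference from the wild type sham mean, complex I stood at -0.33, -0.44 and -0.27 in knockout TAC hearts, at 0.13, 0.02 and 0.15 in knockout sham hearts, at -0.09, -0.25 and -0.10 in wild type TAC hearts and at 0.05, 0.00 and -0.04 in wild type sham hearts. Complex IV stood at -0.22, -0.27 and -0.15 in knockout TAC hearts, at 0.05, 0.04 and 0.14 in knockout sham hearts, at 0.05, -0.17 and -0.04 in wild type TAC hearts and at 0.00, -0.03 and 0.02 in wild type sham hearts. In each of the 5 complexes the lowest knockout TAC array was replicate 2 and the lowest wild type TAC array was replicate 2. Over all 78 genes the shift was -0.29, -0.36 and -0.20 in knockout TAC hearts, against 0.08, 0.02 and 0.12 in knockout sham hearts, and 0.00, -0.22 and -0.07 in wild type TAC hearts, against 0.02, -0.01 and -0.02 in wild type sham hearts. Wild type TAC replicate 2 thus lay beyond knockout TAC replicate 3, so the TAC groups of the genotypes overlapped on this measure. The same median over all genes stayed between -0.05 and 0.05 on every array.

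**Figure D2:**
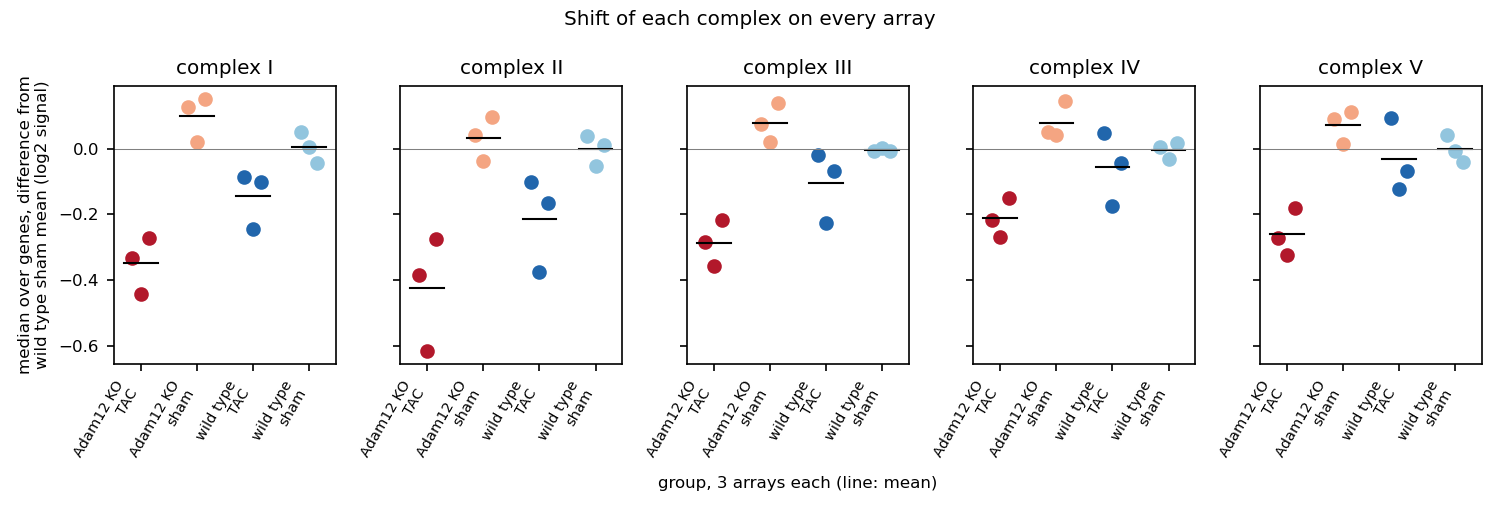
Median over the genes of each complex of the difference from the wild type sham mean (log2 signal), 1 point per array and a line at the mean of 3 arrays. Knockout TAC arrays lie lowest on average in all 5 panels, and wild type TAC replicate 2 reaches into their range in complexes II, III and IV but not in I and V.

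Complex I, which oxidises NADH, had the most members and the most calls. Its 3 measured core genes all fell. Ndufs3, a core subunit of the arm that reaches into the matrix, read 11.68, 11.72 and 11.79 in knockout TAC hearts, 12.16, 12.22 and 12.26 in knockout sham hearts, 11.94, 11.81 and 11.94 in wild type TAC hearts and 12.02, 12.02 and 12.14 in wild type sham hearts. The 3 knockout TAC arrays were the lowest of all 12. The TAC difference of Ndufs3 in the knockout was -0.49 ± 0.07 (SE, limma adjusted p = 0.00111), the smallest p among the 78 genes. Ndufs7, which carries the iron-sulfur cluster that hands electrons to ubiquinone, read 13.38, 13.17 and 13.34 in knockout TAC hearts, 14.01, 13.84 and 13.90 in knockout sham hearts, 13.79, 13.54 and 13.62 in wild type TAC hearts and 13.98, 13.76 and 13.84 in wild type sham hearts. Again the knockout TAC arrays lay below the other 9, while the wild type TAC and sham arrays overlapped. The difference was -0.62 ± 0.09 (adjusted p = 0.00150). Ndufs1, the large iron-sulfur subunit, read 14.65, 14.52 and 14.78 in knockout TAC hearts, 15.19, 15.17 and 15.28 in knockout sham hearts, 14.94, 14.82 and 15.08 in wild type TAC hearts and 15.18, 15.13 and 15.33 in wild type sham hearts. It fell by 0.56 in the knockout (adjusted p = 0.00247), and its knockout TAC arrays too lay below the other 9.

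Among the accessory subunits of complex I, 18 of 22 fell. Ndufa8, an accessory subunit on the intermembrane side, had the largest change of all 78 genes and was singled out for it. It read 14.25, 13.67 and 14.24 in knockout TAC hearts, 15.18, 14.90 and 14.92 in knockout sham hearts, 14.78, 14.39 and 14.41 in wild type TAC hearts and 14.93, 14.94 and 14.77 in wild type sham hearts. Knockout TAC replicate 2 was the lowest of the 12 arrays, and the other 2 knockout TAC arrays were still below every array of the other groups. The difference was -0.95 ± 0.16, or 48.2% lower (adjusted p = 0.00254). Ndufab1, the mitochondrial acyl carrier protein that also sits in complex I, fell by 0.59 (adjusted p = 0.00172), and Ndufa1, a small membrane subunit, by 0.52 (adjusted p = 0.00228). The 4 complex I genes that did not pass, Ndufb9, Ndufc1, Ndufc2 and Ndufs5, had differences from -0.39 to -0.29, and their knockout TAC arrays too lay below all knockout sham arrays. With the replicate number as a block over all arrays Ndufb9, Ndufc1 and Ndufs5 passed (adjusted p = 0.0473, 0.0461 and 0.0128), and within the 6 knockout arrays Ndufs5 did (adjusted p = 0.0249). Ndufb9, Ndufc1 and Ndufs5 also passed without a block, namely with array weights, after quantile normalization and without dim genes. Each of the 4 passed with some single array left out.

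Of the genes for complex I assembly factors, which help to join its subunits, Ndufaf4 had the largest difference. Ndufaf4 read 10.57, 10.46 and 10.46 in knockout TAC hearts, 11.23, 11.27 and 11.07 in knockout sham hearts, 11.15, 10.77 and 11.07 in wild type TAC hearts and 11.15, 11.28 and 11.01 in wild type sham hearts. The knockout TAC arrays stood apart from all others, and the difference was -0.69 ± 0.11 (adjusted p = 0.00174). Ndufaf6 fell by 0.36 (adjusted p = 0.0370), a call lost without knockout TAC replicate 1 or 2, knockout sham replicate 1 or 3, or wild type sham replicate 1 or 2, and with the replicate block within the knockout arrays (adjusted p = 0.105). The call was also lost with all probe sets tested, with arrays centred on their median and with only the groups compared fitted (limma adjusted p = 0.0775, 0.0517 and 0.0842). Ndufaf1 at -0.36 and Ndufaf8 at -0.28 did not pass, nor did Ndufaf2, Ndufaf3 and Ndufaf5, whose differences lay between -0.17 and -0.06.

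Complex II, succinate dehydrogenase, is also an enzyme of the tricarboxylic acid cycle. Sdhc, one of the pair of subunits that anchor it in the membrane, read 12.96, 12.50 and 12.82 in knockout TAC hearts, 13.61, 13.46 and 13.59 in knockout sham hearts, 13.33, 13.02 and 13.04 in wild type TAC hearts and 13.61, 13.45 and 13.54 in wild type sham hearts. The sham groups overlapped, the wild type TAC arrays lay below both, and the knockout TAC arrays lay below those. The TAC difference of Sdhc was -0.79 ± 0.12 in the knockout (adjusted p = 0.00149) and -0.40 ± 0.12 in the wild type (adjusted p = 0.195). Sdha, the flavoprotein that takes the electrons from succinate, read 14.93, 14.78 and 15.07 in knockout TAC hearts, 15.43, 15.46 and 15.61 in knockout sham hearts, 15.25, 15.07 and 15.31 in wild type TAC hearts and 15.39, 15.30 and 15.56 in wild type sham hearts. It fell by 0.58 in the knockout (adjusted p = 0.00360), and its wild type arrays overlapped. Sdhb, the iron-sulfur subunit, fell by 0.34 (adjusted p = 0.0205), but not without knockout TAC replicate 2 or knockout sham replicate 3. The call of Sdhb was also lost with all probe sets tested and with only the groups compared fitted. Sdhd, the other anchor, was at -0.33 ± 0.12 and did not pass (adjusted p = 0.119), although its knockout arrays did not overlap.

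Complex III passes electrons from ubiquinol to cytochrome c. Uqcrc1, a core protein of the complex, read 15.38, 15.16 and 15.43 in knockout TAC hearts, 15.92, 15.84 and 15.99 in knockout sham hearts, 15.72, 15.42 and 15.53 in wild type TAC hearts and 15.91, 15.87 and 15.93 in wild type sham hearts. Both TAC groups lay below both sham groups and overlapped with each other at a single pair of arrays. The difference was -0.60 ± 0.09 in the knockout (adjusted p = 0.00178). Both of the electron carriers encoded by the nucleus fell. Uqcrfs1, the Rieske iron-sulfur protein, averaged 11.08 ± 0.04 in knockout TAC hearts, 11.50 ± 0.05 in knockout sham hearts, 11.21 ± 0.08 in wild type TAC hearts and 11.42 ± 0.07 in wild type sham hearts (SD, n = 3 each). Its knockout difference was -0.42 ± 0.07 (adjusted p = 0.00259). Cyc1, cytochrome c1, read 13.22, 13.05 and 13.25 in knockout TAC hearts, 13.58, 13.46 and 13.67 in knockout sham hearts, 13.49, 13.20 and 13.21 in wild type TAC hearts and 13.50, 13.53 and 13.50 in wild type sham hearts. It fell by 0.40 in the knockout (adjusted p = 0.0172), but not without knockout TAC replicate 2, knockout sham replicate 1 or knockout sham replicate 3. Uqcrh, the hinge protein, fell by 0.44. Uqcr10, Uqcr11 and Uqcrb did not pass, with differences from -0.41 to -0.14.

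Complex IV, cytochrome c oxidase, reduces oxygen and has several subunits with a pair of isoforms. Cox6a2 and Cox7a1, isoforms that mark heart and skeletal muscle, held the largest changes of the complex. Cox6a2 read 16.21, 15.70 and 16.00 in knockout TAC hearts, 16.92, 16.61 and 16.87 in knockout sham hearts, 16.61, 16.32 and 16.05 in wild type TAC hearts and 16.84, 16.67 and 16.73 in wild type sham hearts. TAC arrays lay below sham arrays in both genotypes, and the TAC groups of the genotypes overlapped. The difference of Cox6a2 was -0.83 ± 0.15 in the knockout (adjusted p = 0.00457) and -0.42 ± 0.15 in the wild type (adjusted p = 0.286). Cox7a1 read 16.87, 17.00 and 16.93 in knockout TAC hearts, 17.75, 17.55 and 17.75 in knockout sham hearts, 17.76, 17.13 and 17.34 in wild type TAC hearts and 17.53, 17.45 and 17.48 in wild type sham hearts. Its knockout TAC arrays were close to each other and below the other 9, while its wild type TAC arrays spread on both sides of the sham arrays. The difference was -0.75 ± 0.13 in the knockout (adjusted p = 0.00329). Cox8b, the muscle form of another subunit, was at -0.38 ± 0.14 and did not pass (adjusted p = 0.126). It did pass with the block within the knockout arrays (adjusted p = 0.0334) and with only the groups compared fitted (limma adjusted p = 0.0358).

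The widely expressed partners of Cox6a2 and Cox7a1 had smaller differences in the knockout. Cox6a1 averaged 13.37 ± 0.17 in knockout TAC hearts, 13.61 ± 0.09 in knockout sham hearts, 13.60 ± 0.23 in wild type TAC hearts and 13.50 ± 0.35 in wild type sham hearts (SD, n = 3 each), and its knockout difference of -0.24 did not pass (adjusted p = 0.434). Cox7a2 averaged 13.43 ± 0.06 in knockout TAC hearts, 13.65 ± 0.13 in knockout sham hearts, 13.49 ± 0.16 in wild type TAC hearts and 13.50 ± 0.09 in wild type sham hearts, and its knockout difference of -0.22 did not pass either (adjusted p = 0.182). Cox4i1, the usual form of the largest nuclear subunit, fell by 0.43 (adjusted p = 0.0128), but not without knockout TAC replicate 2, knockout sham replicate 1 or knockout sham replicate 3. Cox4i2, a form known from lung and low oxygen, was at -0.19 (adjusted p = 0.0928). It passed, as lower, after quantile normalization and without dim genes. Ndufa4 fell by 0.42 (adjusted p = 0.00759). Its paralogue Ndufa4l2, known to be induced by low oxygen, read 7.70, 7.41 and 7.37 in knockout TAC hearts, against 7.13, 6.80 and 7.12 in knockout sham hearts, and 7.79, 7.34 and 7.12 in wild type TAC hearts, against 7.18, 7.39 and 6.99 in wild type sham hearts. Its knockout arrays did not overlap and its wild type arrays did. At 0.48 ± 0.17 it was the 1 positive difference of the 78, and it did not pass (adjusted p = 0.0996). It did pass, as higher, with the replicate number as a block within the 6 knockout arrays (adjusted p = 0.0381) and without wild type TAC replicate 1 (adjusted p = 0.0445), and with the block over all arrays it did not (adjusted p = 0.0614).

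**Figure D3:**
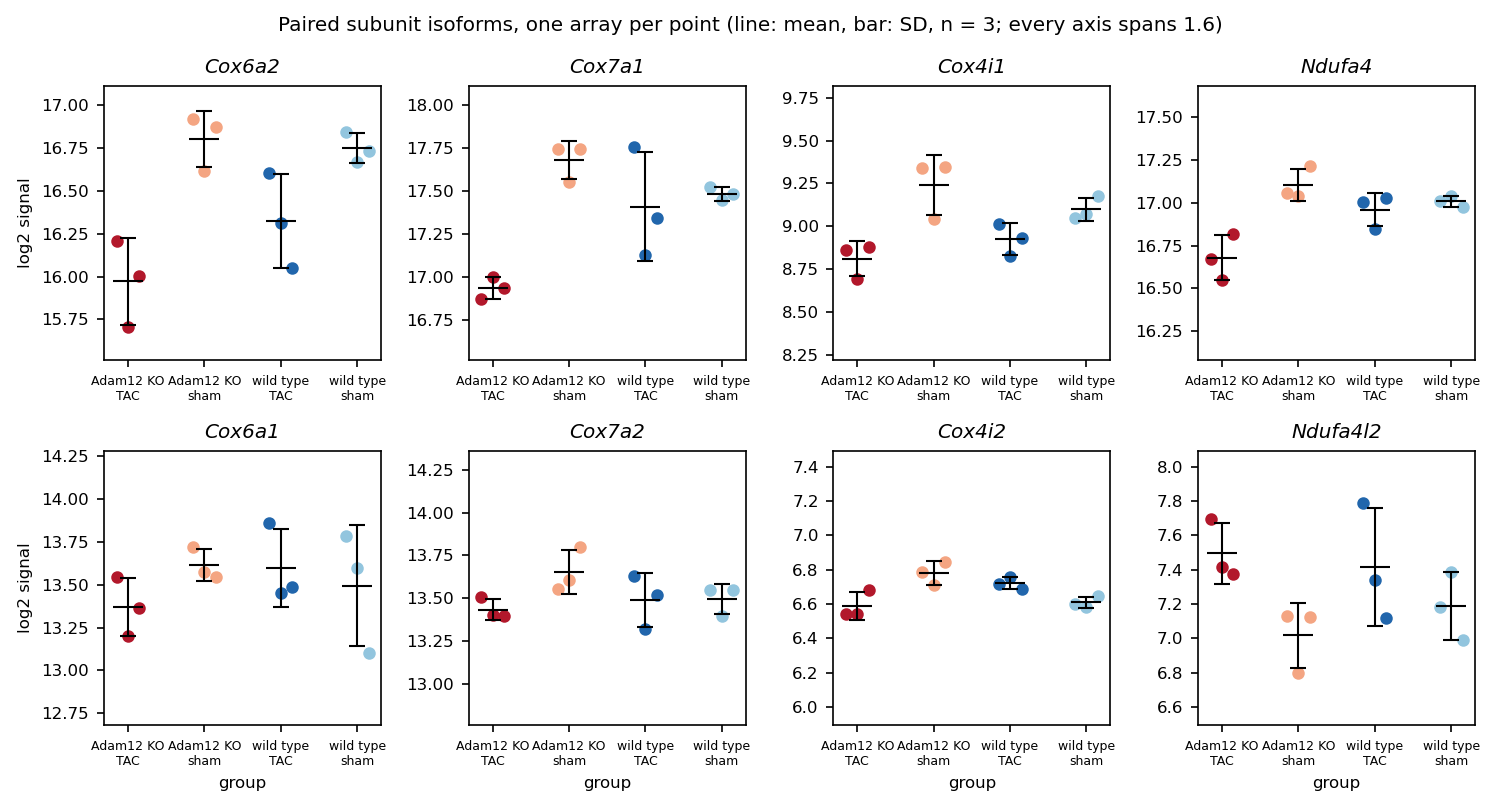
Levels (log2 signal) of 4 pairs of complex IV isoforms in the 4 groups, 1 point per array with mean and SD of 3 arrays. Cox6a2, Cox7a1, Cox4i1 and Ndufa4 (top) lie lower in knockout TAC than in knockout sham hearts, and of their partners (bottom) Ndufa4l2 lies higher.

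Whether partners changed unequally was asked on the difference of their levels within each array, for 9 pairs of isoforms in 3 comparisons, 27 relations in all. The pairs were chosen with the values known. Cox6a2 minus Cox6a1 changed by -0.59 with TAC in the knockout and by -0.53 in the wild type, and by -0.56 averaged over the genotypes (exact permutation test within genotypes, 2-sided p = 0.005, the smallest 400 assignments give, adjusted p = 0.0675). The same exact test gave the same p and adjusted p for Cox4i1 minus Cox4i2, at -0.26. Cox7a1 minus Cox7a2 changed by -0.53 in the knockout and by -0.07 in the wild type (averaged, exact p = 0.03, adjusted p = 0.162). Ndufa4 minus Ndufa4l2 changed by -0.59 on average (exact p = 0.015, adjusted p = 0.135). None of the 27 relations passed the adjustment, and inside 1 genotype 20 assignments allow no p below 0.1.

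Complex V, the ATP synthase, has a membrane rotor made of copies of subunit c, which the 3 genes Atp5g1, Atp5g2 and Atp5g3 encode in the same mature form. All 3 fell in the knockout, by 0.25 for Atp5g1 (adjusted p = 0.0364), by 0.66 for Atp5g2 (adjusted p = 0.00218) and by 0.35 for Atp5g3 (adjusted p = 0.0136). Atp5g3 did not pass without knockout TAC replicate 2, knockout sham replicate 1 or knockout sham replicate 3. Atp5g1 did not pass without any one of these 3 arrays, knockout TAC replicate 1 or wild type sham replicate 2, nor with the block within the knockout arrays (adjusted p = 0.104). Its call was also lost with all probe sets tested, with arrays centred on their median and with only the groups compared fitted (limma adjusted p = 0.103, 0.0685 and 0.0866). Atp5g2 read 15.98, 15.63 and 15.89 in knockout TAC hearts, 16.47, 16.49 and 16.53 in knockout sham hearts, 16.40, 16.22 and 16.20 in wild type TAC hearts and 16.45, 16.33 and 16.13 in wild type sham hearts. The knockout TAC arrays lay below all others, the knockout sham arrays above all others, and the wild type groups overlapped. A second probe set with the symbol Atp5g2, placed on chromosome 7 by its identifier, gave the same difference of -0.66. In the peripheral stalk, which holds the motor still, Atp5pb fell by 0.45 (adjusted p = 0.00197) and Atp5h by 0.39 (adjusted p = 0.00803). Atp5b, the catalytic beta subunit of the head where ATP is made, read 16.27, 16.29 and 16.30 in knockout TAC hearts, 16.40, 16.38 and 16.47 in knockout sham hearts, 16.36, 16.30 and 16.30 in wild type TAC hearts and 16.38, 16.36 and 16.36 in wild type sham hearts. The knockout arrays did not overlap, yet the difference was -0.13 ± 0.06 and did not pass (adjusted p = 0.204). Of the central stalk genes, Atp5d fell by 0.52 (adjusted p = 0.0173), but not without knockout TAC replicate 2 or knockout sham replicate 1. Atp5e was at -0.31 and did not pass (limma adjusted p = 0.0671). It did pass with the block over all arrays (adjusted p = 0.0488) and after quantile normalization (adjusted p = 0.0271). It also passed without dim genes (adjusted p = 0.0335) and without wild type TAC replicate 1 (adjusted p = 0.0331). Atp5l depended on the probe set, since the brightest one, placed on chromosome 5 while the gene lies on chromosome 9, gave -0.10, and dimmer ones on chromosome 9 gave -0.41 and -0.08.

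In wild type hearts none of the 78 genes passed the test for TAC against sham, and 0.178% of all genes did in either direction. By limma 19 had an unadjusted p under 0.05, all of them with negative differences, and 12.3% of all genes had one, 5.54% with a negative difference. The difference was negative for 59 of the 78 and its median was -0.08, with 0.02 over all genes. The TAC arrays lay wholly below the sham arrays for 22 genes (7.07% of all genes), among them 6 of complex I, 2 of complex II, 4 of complex III, 5 of complex IV and 3 of complex V, and wholly above them for 1, Cox4i2. The smallest p-values belonged to Ndufb6, an accessory complex I subunit, at -0.29 ± 0.08 (adjusted p = 0.154), Uqcrc1 at -0.34 ± 0.09 (adjusted p = 0.161), Sdhc at -0.40 ± 0.12, Uqcrfs1 at -0.21 ± 0.07 (adjusted p = 0.251) and Ndufs1 at -0.26 ± 0.09 (adjusted p = 0.276). By complex the medians were -0.15 for I, -0.20 for II, -0.13 for III, -0.04 for IV and -0.04 for V.

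Knockout and wild type hearts after TAC were then compared directly. None of the 78 genes passed, and 0.0111% of all genes did in either direction. The count was not the same in every alternative. It was 7 without wild type TAC replicate 2, 4 with the replicate number as a block, 3 without dim genes and 1 without knockout TAC replicate 3. The difference was negative for 75 of the 78, with a median of -0.17, against -0.04 over all genes, and 31 genes had an unadjusted p under 0.05 by limma, all negative. Of all genes 14.6% had one, 7.67% with a negative difference. All knockout TAC arrays lay below all wild type TAC arrays for 34 genes (11.3% of all genes). These were 17 of 25 in complex I, 2 of 4 in complex II, 1 of 9 in complex III, 4 of 18 in complex IV and 7 of 12 in complex V, with 2 assembly factors and 1 copy. The smallest p-values were those of Ndufaf4 at -0.50 ± 0.11 (adjusted p = 0.0675), Ndufb4c at -0.40 ± 0.09 (adjusted p = 0.0782), Atp5g2 at -0.44 ± 0.11 (adjusted p = 0.0826), Ndufs7 at -0.35 ± 0.09 (adjusted p = 0.108) and Cox7a1 at -0.48 ± 0.13 (adjusted p = 0.116). Ndufb4c is annotated as a copy of the complex I gene Ndufb4, and its probes may read both. This comparison uses the same knockout TAC arrays as the TAC comparison in the knockout, so the values stand side by side and are not separate evidence.

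After sham surgery most differences between the genotypes were positive. None of the 78 genes passed (0.0% of all genes did), and 5 (6.41%) had an unadjusted p under 0.05 by limma, a share near the 5.53% of all genes. The difference was positive for 68 of the 78, with a median of 0.08, against 0.01 over all genes. All knockout sham arrays lay above all wild type sham arrays for 16 genes, where 6.43% of all genes did. Ndufb4c at 0.25 ± 0.09, Ndufab1 at 0.22 ± 0.09, Cox4i2 at 0.17 ± 0.07, Cox6b1 at 0.17 ± 0.07 and Ndufs3 at 0.15 ± 0.07 had the smallest p-values (adjusted p from 0.892 to 0.899).

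Whether the knockout responded more to TAC than the wild type was tested with the interaction of surgery and genotype. It passed for none of the 78 genes (0.0% of all genes), in the analysis as given and in each of its alternatives. It was negative for 76 of the 78, with a median of -0.27, against -0.04 over all genes, and 33 genes had an unadjusted p under 0.05 by limma, all negative. Of all genes 11.0% had one, 5.93% with a negative value. The smallest p-values belonged to Ndufb4c at -0.65 ± 0.13 and Atp5g2 at -0.63 ± 0.15 (adjusted p = 0.259 for each), then to Ndufa12 at -0.40 ± 0.11, Cox7a1 at -0.67 ± 0.19 (adjusted p = 0.268 for each) and Ndufa13 at -0.47 ± 0.13 (adjusted p = 0.269). Averaged over the genotypes, 41 of the 78 genes fell with TAC and 0 rose, where 6.12% of all genes fell and 7.49% rose, and the median was -0.23. Uqcrc1 at -0.47 ± 0.07 (adjusted p = 0.000912) and Sdhc at -0.60 ± 0.09 (adjusted p = 0.000969) led this comparison, which holds the same arrays as the 2 TAC comparisons above.

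Other genes of oxidative metabolism were counted from lists made with earlier results of these data known. Of 17 genes of the tricarboxylic acid cycle and pyruvate dehydrogenase, 14 fell with TAC in the knockout and 0 rose, with a median of -0.49. Suclg2, a succinyl-CoA ligase subunit, was at -0.86, Fh1, fumarase, at -0.65, Suclg1 at -0.64 and Idh3a, of isocitrate dehydrogenase, at -0.59. Of 11 genes for cytochrome c and coenzyme Q synthesis 7 fell and 0 rose, with a median of -0.41, led by Coq9 at -0.65. The count was 4 without knockout TAC replicate 2 and 3 without knockout sham replicate 3. Cycs, cytochrome c itself, was at -0.22 and did not pass. Of 22 other assembly factors 7 fell and 1 rose, with a median of -0.22. Atpaf1, which assembles the ATP synthase head, was at -0.61, Foxred1 and Ecsit, both for complex I, were at -0.52 and -0.57, and Cox19, a copper-related factor of complex IV, was the one that rose, at 0.42. Of these assembly factors 4 fell without knockout TAC replicate 2, and likewise 4 without knockout sham replicate 1 or 3. No gene of these lists passed in wild type hearts, where the medians were -0.21, -0.16 and -0.11.

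Of 14 regulators of mitochondrial gene expression 8 fell with TAC in the knockout and 0 rose. The count was 5 without knockout TAC replicate 2 and 4 without knockout sham replicate 1 or 3. Ppargc1a read 14.03, 13.58 and 14.41 in knockout TAC hearts, 15.27, 15.18 and 15.16 in knockout sham hearts, 14.47, 14.11 and 14.54 in wild type TAC hearts and 15.08, 15.09 and 14.94 in wild type sham hearts. Both TAC groups lay below both sham groups, and they overlapped with each other. The difference of Ppargc1a was -1.20 ± 0.18 in the knockout (adjusted p = 0.00129) and -0.66 ± 0.18 in the wild type (adjusted p = 0.156). Ppara, a nuclear receptor of fatty acid oxidation genes, was at -0.88 in the knockout, and Esrrg and Esrrb, both estrogen-related receptors, at -0.60 and -0.59. Gabpa, a gene of the ETS factor GABP, fell by 0.36 in the knockout (limma adjusted p = 0.0135). In the wild type it was at -0.30 and did not pass (limma adjusted p = 0.158). Nrf1 at 0.01, Yy1 at 0.06 and Tfam at -0.11, whose product maintains mitochondrial DNA, did not pass in the knockout.

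Markers of other cells moved in the same hearts. Since the samples are whole tissue, fewer heart muscle cells and less RNA per muscle cell cannot be told apart. Of 9 cardiomyocyte markers 3 fell with TAC in the knockout (Tnni3 at -0.58, Ryr2 at -0.48 and Pln at -0.30), Mybpc3 rose at 0.48, and the median was -0.09. Mybpc3 did not pass without knockout TAC replicate 3 or knockout sham replicate 2, nor Pln without knockout TAC replicate 2, knockout sham replicate 1 or knockout sham replicate 3, or with the block within the knockout arrays (adjusted p = 0.0565). Pln also did not pass with all probe sets tested or with only the groups compared fitted (limma adjusted p = 0.0615 and 0.0662). The mean level of the 9 cardiomyocyte markers was 17.70 to 17.84 in knockout TAC hearts, 17.90 to 17.93 in knockout sham hearts, 17.83 to 17.85 in wild type TAC hearts and 17.86 to 17.91 in wild type sham hearts. Of 11 fibroblast markers 9 rose and 0 fell, and their mean level was 12.62 to 12.98 in knockout TAC hearts, 10.95 to 11.10 in knockout sham hearts, 11.27 to 12.41 in wild type TAC hearts and 10.97 to 11.19 in wild type sham hearts. Of 8 macrophage markers 7 rose and 0 fell, with means of 9.35 to 10.17 in knockout TAC hearts, 8.44 to 8.82 in knockout sham hearts, 9.01 to 9.36 in wild type TAC hearts and 8.53 to 8.84 in wild type sham hearts. Wild type TAC replicate 2, the lowest of its group for the respiratory genes, was the highest of its group for fibroblast markers at 12.41 and the lowest for macrophage markers at 9.01. Knockout TAC replicate 2, the lowest of its group for the respiratory genes, was the highest for macrophage markers at 10.17 but not for fibroblast markers, at 12.84 against 12.98 in replicate 1. Knockout TAC replicate 3, the highest of its group for the respiratory genes, was the lowest for both. Endothelial markers rose for 2 of 7 genes and mural cell markers for 1 of 4, and none passed among 6 atrial, 4 lymphocyte and 1 red blood cell markers. The endothelial count was 1 of 7 in 14 of the 23 alternatives. It was so without any of 9 single arrays, with Myl7 as a covariate and with the block within the knockout arrays. The same held with all probe sets tested, with arrays centred on their median and with only the groups compared fitted. Nppa, which was counted on the atrial list, was at 1.39 (limma adjusted p = 0.0761). It did rise with the replicate block over all arrays (adjusted p = 0.0398) and within the knockout arrays (adjusted p = 0.0491). It also rose with array weights, without dim genes, and without knockout sham replicate 2 or wild type sham replicate 3, and with Myl7 as a covariate both it and Dkk3 rose. In the analysis as given the 6 atrial markers went both ways. Bmp10 at 2.39 and Dkk3 at 0.82 were positive like Nppa, and Myl7 at -1.17, Sln at -0.80 and Myl4 at -0.39 were negative. Whether the level of Nppa reports atrial tissue after TAC was not tested. A lymphocyte marker rose without knockout TAC replicate 3. With the atrial marker Myl7 as a covariate 46 respiratory genes fell. The part of the cell markers in the fall of the respiratory genes was not tested.

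**Figure D4:**
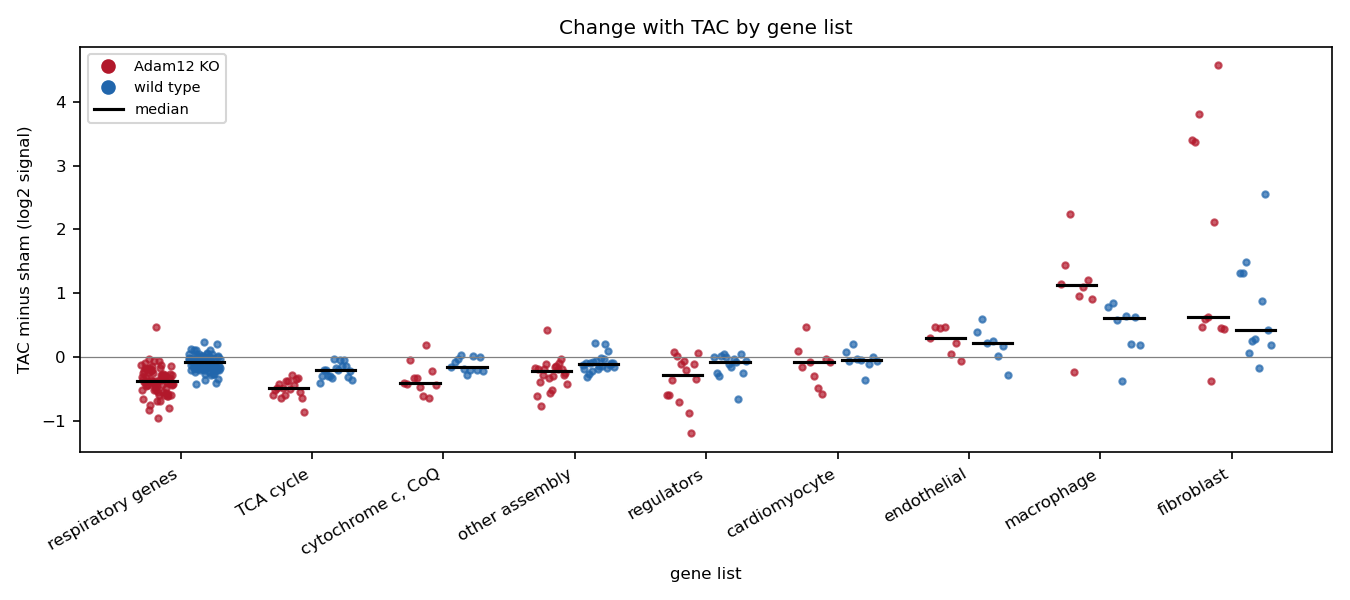
Difference TAC minus sham (log2 signal) of each gene by list, in knockout (red) and wild type hearts (blue), with the median as a line. The respiratory genes and the tricarboxylic acid cycle genes lie mostly below 0 in the knockout, with medians of -0.38 and -0.49, the cardiomyocyte markers near 0 at -0.09, and the macrophage and fibroblast markers above 0, at 1.12 and 0.63.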

How the data were processed

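Total RNA from each heart (250 ng, biotin labelled) was hybridised to a Clariom D array. Per the submitters' processing notes the deposited log2 signals, 65527 probe sets on 12 arrays, came from Affymetrix Expression Console, and how they were normalized is not given in the sources used here. Their range, 1.27 to 19.93, is how the deposited values were taken to be log2. The number of arrays limits the precision.

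The 6732 control probe sets did not enter the fit. Of all others 27268 carried 1 gene symbol, 1932 several and 29595 none, and 757 symbols were updated by Entrez ID to RefSeq GRCm38.p6. The brightest single-symbol probe set stood for each of 26989 genes (198 with several), with no filter on dim genes. The values were fitted with limma 3.58.1 in R 4.3.3, 1 mean per group over all 12 arrays (prior degrees of freedom 3.29, residual 8), 2-sided, with Benjamini-Hochberg adjustment over all genes. Genes with adjusted p under 0.05 are said to have risen or fallen. Errors of differences are limma standard errors. The fit was tested on simulated data. Isoform pairs were tested with exact permutation.

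Members, lists, motifs and isoform pairs were chosen with earlier results of these data known. Named were the isoform, core subunit and catalytic head genes, complex II, Cyc1, Uqcrfs1, up to 4 genes per complex and list, and 5 per other comparison, by smallest p. Ndufa8, Ndufa5, the other Ndufaf genes and the genes that did not pass in complexes I and III were named after their values were seen. So were Cycs, Gabpa, Nrf1, Yy1, Tfam, Sln and Bmp10.

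Arrays of the same number in the knockout TAC and knockout sham groups deviated together (correlations of deviations from 0.143 to 0.254), in other pairs of groups not always (from -0.068 to 0.315). Wild type TAC arrays also deviated with the same-numbered knockout TAC arrays (0.083 to 0.207) and knockout sham arrays (0.039 to 0.315). From the data the numbers were treated as possible pairing, since the labels do not say what a number marks. The analysis as given had no block. The block entered as alternatives only, over all arrays and within the knockout arrays. Alternatives covered normalization, probe sets, dim genes, the variance model, array weights, the arrays fitted, Myl7, the replicate block and each array left out.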

Additional observations from a re-analysis of the deposited data

Results flagged for a closer look

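The complex IV gene Cox4i2 differed with TAC by -0.19 in the knockout and by 0.11 in the wild type. Neither difference passed (limma adjusted p = 0.0928 and 0.556). The knockout difference did pass, as lower, after quantile normalization and without dim genes. After sham surgery Cox4i2 was 0.17 higher in the knockout than in the wild type, which did not pass (limma adjusted p = 0.892). It read 6.54, 6.54 and 6.68 in knockout TAC hearts, 6.79, 6.71 and 6.85 in knockout sham hearts, 6.71, 6.76 and 6.69 in wild type TAC hearts and 6.60, 6.58 and 6.65 in wild type sham hearts. Every knockout TAC array lay below every knockout sham array, and every wild type TAC array lay above every wild type sham array. The TAC response of the knockout minus that of the wild type was -0.30 ± 0.10 on the log2 scale (SE), which did not pass the test of the interaction over all genes (limma adjusted p = 0.291). It lay between -0.35 and -0.27 with an array left out and was negative in each alternative run. It was the only one of the 78 genes whose arrays parted in opposite ways, and groups of 3 arrays are too small for the check on single outlying arrays.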

How the results depend on the processing

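The 47 respiratory genes called with TAC in the knockout, all lower, became 30 without knockout TAC replicate 2, the lowest count, and 49 without wild type TAC replicate 1, the highest with an array left out (48 lower, and Ndufa4l2 higher), and 31 without knockout sham replicate 3. With the replicate block it was 51 over all arrays and 44 within the 6 knockout arrays (43 lower, and Ndufa4l2 higher), the second added after seeing the data. It was 39 with all probe sets tested, 42 with the groups compared only, 44 with centred arrays, 46 with Myl7, 47 with averaged probe sets and with a trended robust variance, 50 with array weights, 51 after quantile normalization and 52 without dim genes. For knockout against wild type after TAC the 0 became 4 with the replicate block (Ndufa5, Ndufaf4, Ndufs1 and Ndufs7), 3 without dim genes (Atp5g2, Ndufaf4 and Ndufb4c), and 0 to 7 with an array left out (1 without knockout TAC replicate 3, 7 without wild type TAC replicate 2). Within the knockout arrays the block also moved the Ndufaf genes that fell to 1, against 2 unblocked, and the endothelial markers that rose to 1, against 2. Either block moved the genes of the atrial list that rose to 1 (Nppa), against 0. The block moved no other count of the respiratory genes, by comparison or (TAC in the knockout) by complex, or of the other lists there, by over 1.5 times. Counts for TAC in the wild type, genotype after sham and the interaction were 0 in all alternatives, and the averaged TAC count of 41 ranged from 33 to 47. No called difference of the 78 genes, or of the other genes named, changed sign in any alternative. The causes were not tested.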
